A study of Mus musculus with 6 samples.

Results

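The effect of Sox11K91A on cultured mouse retinal ganglion cells (RGCs) was read from 4 of the 6 libraries of the series, the 2 that received a Sox11K91A AAV and the 2 that received a control AAV, chosen by their labels alone. In Sox11K91A the lysine at position 91, a site of SUMO conjugation, is replaced by alanine. The control virus carried EGFP, and the Sox11K91A virus carried the mutant Sox11 followed by an IRES and EGFP, both packaged as AAV2. The remaining 2 libraries received an unmutated Sox11 AAV and entered the fit and 1 direct comparison. All 6 libraries came from RGCs of C57BL/6 mice of both sexes, purified by immunopanning with CD90.1, grown on PDL and laminin in medium with forskolin, BDNF and CNTF, and taken for RNA 72 h after plating. The protocols give embryonic day 18 for the sequenced cells and postnatal day 2 for RGC cultures in general, and the deposited tables carry postnatal day 0 in their names, so the age is uncertain. The protocol speaks of 3 RNA samples run as duplicates, and separate litters or cultures for the replicates were not stated, so p-values measure the spread between these libraries, which may be technical.

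RGCs are the projection neurons of the retina, and their axons form the optic nerve. Sox11 is a SoxC transcription factor with an HMG box that is high in immature neurons and is induced in sensory neurons after axon injury. SUMO is a small protein that is attached to lysines of many transcription factors and can alter their activity or their place in the cell. The functions described here lie beyond axon guidance, axonogenesis, neuron migration and the generation of neurons, which are usual terms for genes that respond to Sox11.

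Sox11 (chr12:27334264-27342574 on GRCm38, minus strand) had 234 and 332 CPM (reads of the gene scaled to the sum of all genes in the library) in the control libraries and 11971 and 7026 CPM in the Sox11K91A libraries, or 283 ± 69.0 against 9498 ± 3497 CPM (mean ± SD, n = 2 each). This was a log2 fold change of 5.04 (SE 0.33, adjusted p = 0.0092), and the count pools viral and endogenous transcripts. The libraries held between 28392830 and 37061718 expected counts. Throughout, paired values are CPM of replicates 1 and 2, a gene is called when its adjusted p was under 0.05 and its fold change above 1.2, and "rose" and "fell" are kept for called genes.

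Defining RGC markers were high in all 4 libraries. The 20 pan-RGC markers summed to 22663 and 23027 CPM in the control libraries and to 14793 and 17391 CPM with Sox11K91A. Of these, 0 rose and 3 fell (Nrn1, Nefm and Slc17a6), while the RGC factors Pou4f1 (428 and 369 against 332 and 385 CPM) and Isl1 (260 and 270 against 273 and 289 CPM) and the RNA-binding protein Rbpms (232 and 242 against 200 and 232 CPM) were not called. Thy1, which encodes the CD90 antigen used to purify the cells, had 725 and 689 CPM in the control libraries and 154 and 312 CPM with Sox11K91A and was not called (log2 fold change -1.69, adjusted p = 0.19). In bulk samples, fewer cells of a type and less RNA per cell cannot be told apart. Markers of microglia summed to between 2.00 and 3.45 CPM per library, with 7 of 14 members at 3 counts or fewer in each, and those of endothelial cells to between 14.1 and 17.1 CPM, with Cldn5, Cdh5 and Emcn at 3 counts or fewer. The Muller glia and astrocyte markers summed to 2288 and 1651 CPM against 1056 and 1428 CPM, with Gfap at 3 counts or fewer. The 14 amacrine markers stood apart in control replicate 2, at 502 CPM against 877 CPM in control replicate 1 and 807 and 818 CPM with Sox11K91A. That library also held less Xist (95.9 CPM, against between 400 and 506 CPM in the other 3) and more Y-linked transcripts (78.2 CPM, against between 39.1 and 47.7 CPM). The part of these differences in the results was not tested beyond the values given beside them.

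Of 15747 genes tested, 1672 (10.6%) were called with Sox11K91A against control. Of these, 915 (5.81% of genes tested) rose, by a median of 1.17 on the log2 scale, and 757 (4.81%) fell, with a median size of 1.27. Most were protein-coding, 873 of the rises and 745 of the falls. A change of more than 2-fold was found for 559 of the rises and 509 of the falls. For all 1672 called genes the control and Sox11K91A values did not overlap, and the same held for 4915 genes higher and 4828 genes lower among all those tested. The median log2 fold change over all genes was 0.02. The calls rested on all 4 libraries. Without control replicate 2, limma-voom called 0 genes, with 2123 higher and 2580 lower at an unadjusted p under 0.05 and a lowest adjusted p of 0.056. Without Sox11K91A replicate 1 it called 0 genes, with 1080 higher and 835 lower at an unadjusted p under 0.05, and without Sox11K91A replicate 2 it called 161. Without control replicate 1 it called 2529. The counts of rises and falls in the gene groups described here share this limit, and the median without each control library is given for some of the groups. Each of these counts is to be read beside the shares of all genes tested, 5.81% upward and 4.81% downward.

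The genes with the largest rises were nearly silent in control RGCs. Vxn, vexin, a regulator of neuronal differentiation, had 0.394 and 0.285 CPM in the control libraries and 106 and 60.8 CPM with Sox11K91A (log2 fold change 7.86, SE 1.06, adjusted p = 0.017). Vcan, the chondroitin sulfate proteoglycan versican, went from 1.54 and 2.31 CPM to 217 and 110 CPM (6.31, SE 0.84, adjusted p = 0.016). The lens and neuroendocrine crystallin gene Cryba2 had 0 counts in both control libraries and 190 and 83 counts with Sox11K91A, at least 47.2-fold higher against a floor of 3 counts per library. The noncoding gene Gm26675 also had 0 counts in both control libraries, against 114 and 83 counts, at least 34.5-fold higher, but all of its exon bases lie within Zfp597 on the other strand and the reads of the pair cannot be told apart. Others among the 8 largest rises were Usp18, a protease that removes ISG15 (0.286 and 0.0519 against 19.3 and 13.0 CPM), and the matrix gene Vwa2 (0.215 and 0.0519 against 16.7 and 10.5 CPM). The remaining ones were Gbp9, a guanylate-binding protein (0.107 and 0.0778 against 5.90 and 4.42 CPM) and Gm16401 (at most 1 count per control library). In each the Sox11K91A values lay above both control values, which the choice among genes without overlap required. Exon overlap was looked up only for genes selected by the naming rule given with the processing, so other genes given by symbol alone were not checked. Of those that were called, Alkal2, C1ql3, Cdkn1c, Cebpb, Dll1, Endog, Gm16401, Homer3, Jam3, Slc6a9 and Tuba4a share between 20.4% and 61.0% of their exon bases with a gene on the other strand. Ctsd (34.4%) and Pik3r3 (24.3%) share theirs with a gene on the same strand. The counting of strand was not stated, so these values may include reads of the partner.

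The largest falls included several secreted or inducible proteins. Mmp12, a macrophage elastase that degrades matrix, had 52.9 and 35.5 CPM in the control libraries and 0.931 and 3.15 CPM with Sox11K91A (log2 fold change -4.66, SE 0.55, adjusted p = 0.014). Csn3, kappa casein, went from 61.3 and 136 CPM to 2.05 and 9.95 CPM (-4.37, SE 0.82, adjusted p = 0.027), with control values that differed by more than 2-fold from each other. Sprr1a, a small proline-rich protein induced by axon injury, had 7.23 and 18.4 against 0.465 and 1.2 CPM. Purine catabolism was represented by Xdh, xanthine dehydrogenase (3.04 and 4.38 against 0.0310 and 0.171 CPM), and Uox, urate oxidase (2.58 and 3.92 against 0.0931 and 0.480 CPM). The serine protease gene Prss22, the ADP-ribosyltransferase gene Parp3 (6.73 and 5.84 against 0.310 and 0.309 CPM) and Alkal2, a ligand of the ALK receptor (5.37 and 6.82 against 0.310 and 0.514 CPM), completed the 8.

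**Figure D1:**
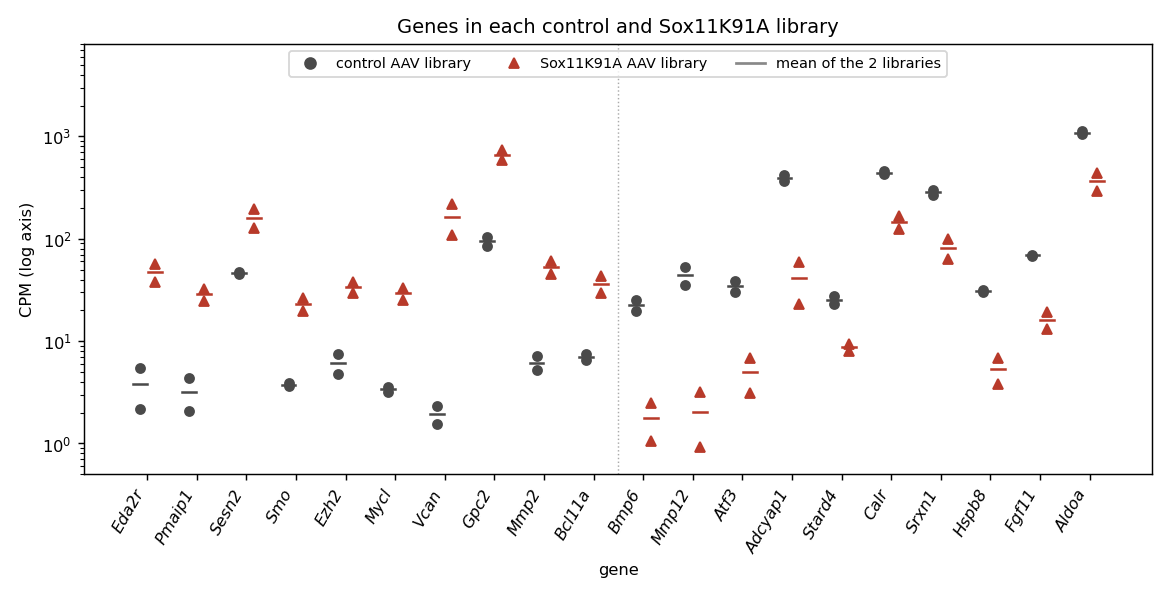
CPM on a log axis of 20 genes described in the text, 10 that rose (left of the dotted line) and 10 that fell, in each of the 2 control libraries (circles) and 2 Sox11K91A libraries (triangles), with horizontal lines at the means. The replicates of the 2 groups do not overlap for any called gene, so this holds for all genes shown. Vcan went from 1.54 and 2.31 CPM to 217 and 110 CPM.

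Sox proteins bind a short core in DNA, so the promoters of the called genes were searched for the letters AACAAAG or AACAATG on either strand, in windows of 300 bases (250 before and 50 after the start; RefSeq, GRCm38.p6). The pair differ in the sixth letter, so no single place holds both. At least 1 promoter held a motif for 92 of the 703 genes that rose and had a promoter in the table (13.1%), for 19 of the 566 that fell (3.36%) and for 801 of all 11448 tested (7.0%). Counted per promoter, the shares were 10.2% of 971 for genes that rose, 2.69% of 743 for genes that fell and 5.8% of 14680 for all genes tested, and over all 32851 promoters of the table it was 9.36%. The median GC content of the promoters was 61.3% for genes that rose, 62.3% for genes that fell and 61.0% for all. A match describes letters and is not a bound site. Single promoters were taken only from genes selected by the naming rule given with the processing. The chromosome of Pcdhgc3, a gene that rose, was left out. Among the rest that rose, the 3 with the largest fold change and a motif before the start are shown. The motif is in capitals, and Mmp12, which holds a motif and fell, is shown with them. They are Ezh2 (chr6:47594981-47595280, minus strand, motif 232 bases before the start), Dcx (chrX:143933075-143933374, minus strand, 9 bases before), Kcnk2 (chr1:189343304-189343603, minus strand, 11 bases before) and Mmp12 (chr9:7344147-7344446, plus strand, 148 bases before), written 5′ to 3′ on the strand of the gene.
Ezh2: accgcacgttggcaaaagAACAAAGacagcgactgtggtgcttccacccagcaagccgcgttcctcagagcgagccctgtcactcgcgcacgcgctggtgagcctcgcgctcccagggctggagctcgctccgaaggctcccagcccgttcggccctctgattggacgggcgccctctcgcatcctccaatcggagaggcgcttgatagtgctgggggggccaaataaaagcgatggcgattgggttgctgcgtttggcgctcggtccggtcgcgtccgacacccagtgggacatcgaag
Dcx: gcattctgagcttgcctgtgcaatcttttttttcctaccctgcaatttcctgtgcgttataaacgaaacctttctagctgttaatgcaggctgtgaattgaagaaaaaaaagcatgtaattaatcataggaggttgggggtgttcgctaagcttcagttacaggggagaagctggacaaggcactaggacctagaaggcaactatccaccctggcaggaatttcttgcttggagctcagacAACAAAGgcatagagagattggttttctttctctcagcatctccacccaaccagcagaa
Kcnk2: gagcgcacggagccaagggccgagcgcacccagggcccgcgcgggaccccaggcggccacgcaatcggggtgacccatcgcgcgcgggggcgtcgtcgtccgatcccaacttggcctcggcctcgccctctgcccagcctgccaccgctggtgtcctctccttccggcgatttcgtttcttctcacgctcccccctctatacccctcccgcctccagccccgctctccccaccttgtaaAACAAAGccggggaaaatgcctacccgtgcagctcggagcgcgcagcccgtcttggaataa
Mmp12: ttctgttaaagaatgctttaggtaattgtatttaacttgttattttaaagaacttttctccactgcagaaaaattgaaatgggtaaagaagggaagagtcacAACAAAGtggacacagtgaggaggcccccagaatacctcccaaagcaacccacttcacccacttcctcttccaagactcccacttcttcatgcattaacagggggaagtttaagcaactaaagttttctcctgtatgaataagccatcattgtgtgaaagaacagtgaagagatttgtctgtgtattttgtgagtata
Of these sequences, those of Dcx and Kcnk2 place the letters close to the start, and those of Ezh2 and Mmp12 far from it.

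Among genes of the p53 pathway 13 of 40 were called, all of them upward. The transcription factor p53 responds to DNA damage and other stress and switches on genes for cell cycle arrest, repair and death. Of 40 members tested, 13 rose and 0 fell. Of these 40, 35 had a fold change above 1, and the median log2 fold change was 0.78. The median was 0.46 and 0.83 without control replicate 1 and 2. edgeR called 12 upward and 0 downward and DESeq2 17 and 0, and at an unadjusted p under 0.05 there were 25 higher and 0 lower. Eda2r, a death receptor of the TNF receptor family, had 5.47 and 2.15 CPM in the control libraries and 56.9 and 37.7 CPM with Sox11K91A (log2 fold change 3.82, SE 0.44, adjusted p = 0.013). Pmaip1, which encodes the BH3-only protein Noxa, went from 2.08 and 4.33 to 32.6 and 24.5 CPM (3.18, SE 0.38, adjusted p = 0.014). Trp53 itself rose from 21.1 and 20.0 to 35.7 and 34.9 CPM (0.78, SE 0.14, adjusted p = 0.026). The other called members were Ckap2, Pidd1, Trp53inp1, Sesn2, Ccng1, Ccng2, Plk2, Aen, Ercc5 and Xpc, named here after their values were seen, as are all members given in this text by symbol alone. Cdkn1a, the p21 inhibitor, had 283 and 387 against 555 and 445 CPM and was not called (0.59, adjusted p = 0.098), nor was Mdm2, which degrades p53 (50.2 and 62.7 against 73.1 and 69.8 CPM). The 2 control libraries differed in this group by a median of 0.48, with replicate 2 the higher.

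Among the wider genes of cell death the changes were mixed. Of 33 genes of the pro-apoptotic BCL2 family, caspases and death receptors, 5 rose (Pmaip1, Ngfr, Bmf, Bok and Apaf1) and 1 fell, the mitochondrial nuclease gene Endog (20.7 and 19.7 against 8.35 and 9.64 CPM), and the median was -0.01 (0.07 and 0.04 without control replicate 1 and 2). Ngfr, the neurotrophin receptor p75, had 17.1 and 13.9 CPM in the control libraries and 163 and 105 CPM with Sox11K91A (log2 fold change 3.10, SE 0.36, adjusted p = 0.014). The BH3-only gene Bbc3 (59.0 and 93.6 against 148 and 114 CPM, adjusted p = 0.09) and the effector gene Bax (62.3 and 100 against 93.1 and 82.7 CPM, adjusted p = 0.70) were not called. Of 11 anti-apoptotic genes 1 rose, Bcl2, from 21.4 and 20.5 to 52.5 and 42.0 CPM (1.17, SE 0.24, adjusted p = 0.033), so genes on both sides of the BCL2 family were higher.

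Chromatin genes rose more often than they fell. Of 60 remodelers and modifiers, 10 rose and 1 fell, with 46 above a fold change of 1 and a median of 0.22 (0.40 and 0.14 without control replicate 1 and 2). Ezh2, the histone H3 lysine methyltransferase of Polycomb complex PRC2, went from 4.76 and 7.42 CPM to 37.9 and 29.4 CPM (log2 fold change 2.45, SE 0.43, adjusted p = 0.024). Smarca2, the BRM ATPase of the BAF remodeling complex, went from 75.5 and 66.4 to 203 and 156 CPM (1.33, SE 0.20, adjusted p = 0.020). BAF subunits made up most of the other rises (Bcl7a, Smarcc1, Smarcd1, Ss18l1, Dpf1 and Smarce1), with the histone deacetylases Hdac2 and Hdac7. The progenitor subunit gene Actl6a (11.0 and 14 against 16.6 and 16.0 CPM) and the neuronal subunit gene Actl6b (83.4 and 95.2 against 101 and 106 CPM) were not called. Sirt3, a mitochondrial deacetylase, fell (19.6 and 20.4 against 9.90 and 10.5 CPM). The DNA methyltransferase gene Dnmt3a had 403 and 199 against 126 and 141 CPM and was not called (-1.09, adjusted p = 0.082).

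Transcripts of cell division were low in both groups and few were called. Of 63 genes of the cell cycle and mitosis, 2 rose (Mcm7 and Ndc80) and 0 fell, DESeq2 called 7 upward and 2 downward, and the proliferation marker Mki67 had 1.00 and 0.649 against 0.248 and 0.343 CPM. Mcm7, a subunit of the replicative helicase, went from 5.65 and 7.58 to 21.6 and 17.5 CPM, whereas Mcm2 had 11.2 and 7.63 against 3.38 and 5.62 CPM (log2 fold change -1.06, adjusted p = 0.084). Regulators of G1 moved in both directions, 6 of 24 up and 3 down. Mycl, of the Myc family, rose from 3.22 and 3.53 to 33.1 and 25.3 CPM (3.09, SE 0.40, adjusted p = 0.015), and Cdkn1c, the p57 inhibitor of cyclin-dependent kinases, from 14.9 and 16.4 to 45.4 and 29.7 CPM (1.23, SE 0.30, adjusted p = 0.048). Cdk4, Cdk5r1, Rb1 and Mycn also rose. Cdkn2d, the p19 inhibitor (88.5 and 107 against 50.6 and 56.7 CPM), Ccnd3, cyclin D3 (21.9 and 19.9 against 10.2 and 13.8 CPM), and Cdk5r2 fell.

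RGC transcription factors rose more often than they fell, 7 of 52 against 2, with a median of 0.29. Bcl11a, a zinc-finger repressor and BAF partner, went from 7.41 and 6.54 to 43.2 and 29.5 CPM (log2 fold change 2.37, SE 0.38, adjusted p = 0.021), and the zinc-finger gene Myt1 from 39.6 and 30.4 to 109 and 89.2 CPM (1.51, SE 0.21, adjusted p = 0.018). Bcl11b, Onecut2, Foxp4, Satb1 and Lmo4 also rose. The POU factor gene Pou3f1 fell from 58.8 and 57.9 to 12.2 and 18.1 CPM (-1.98, SE 0.22, adjusted p = 0.012), and the homeobox gene Irx6 from 21.7 and 22.1 to 7.88 and 10.5 CPM (-1.27, SE 0.20, adjusted p = 0.020). Of 27 retinal progenitor and proneural factors, 1 rose, Insm1, a zinc-finger factor of neurons leaving the cell cycle (32.1 and 30.6 against 73.8 and 65.2 CPM), and 0 fell, with 3 higher and 2 lower at an unadjusted p under 0.05 and 1 downward by DESeq2. In the Sox family of 12, beside Sox11, Sox13 rose (0.716 and 1.19 against 8.66 and 6.55 CPM) and the SoxC relative Sox12 fell (186 and 162 against 103 and 111 CPM, log2 fold change -0.70, adjusted p = 0.033). Among Mef2 and Kruppel-like factors, Mef2c rose (6.48 and 5.03 against 13.8 and 12.6 CPM), and Klf5 (7.51 and 11.1 against 1.30 and 2.85 CPM), Klf16 and Klf10 fell. Of the Tfap2 factors, Tfap2a and Tfap2b, which mark amacrine cells in the retina, were low in control replicate 2 with the amacrine markers. Tfap2a had 90 and 14 counts in the control libraries and 245 and 134 counts with Sox11K91A and was not called. Tfap2b had 11.0 and 2.41 against 25.8 and 16.7 CPM and was not called. Tfap2d, whose control values lay closer together, rose, with 15.1 and 9.52 against 33.7 and 23.2 CPM. This call was not kept in all settings. Of the 3 Tfap2 factors, edgeR called 0 upward and DESeq2 1, and 0 were called upward with a covariate for the Y-linked to Xist ratio. The median of the 3 Tfap2 factors was 3.11 without control replicate 1 and 0.89 without control replicate 2.

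Hedgehog signaling had 7 rises among 18 members tested, with 0 falls and a median log2 fold change of 0.63 (0.80 and 1.06 without control replicate 1 and 2). DESeq2 called 7 upward and 1 downward and edgeR 7 and 0. In this pathway a Hedgehog ligand binds the receptor Patched, which frees the transducer Smoothened. Smo, which encodes Smoothened, went from 3.61 and 3.87 to 26.1 and 19.9 CPM (2.60, SE 0.26, adjusted p = 0.011). Scube1, a secreted protein of the family that releases Hedgehog ligands, went from 2.50 and 2.05 to 32.6 and 16.3 CPM (3.36, SE 0.56, adjusted p = 0.022), and Kif7, the ciliary kinesin of the pathway, from 2.33 and 1.76 to 11.6 and 8.68 CPM. Scube3, Gpr161 and Cdon also rose. The ligand gene Shh had 36.3 and 44.5 against 20.2 and 26.7 CPM (-0.80, adjusted p = 0.052), and Ptch1, a receptor that is also a target of the pathway, had 75.4 and 43.2 against 59.9 and 54.3 CPM (0.01, adjusted p = 0.99), and neither was called.

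Notch signaling, by which neighboring cells restrain each other's differentiation, had 5 rises and 2 falls among 31 members. The ligand gene Dll1 rose from 10.2 and 7.11 to 29.0 and 24.8 CPM (log2 fold change 1.69, SE 0.28, adjusted p = 0.022). The coactivator gene Maml2 rose from 2.36 and 1.89 to 7.45 and 5.69 CPM, with Rbpj, Notch3 and Hes6. The ligand genes Dlk1 (18.9 and 12.5 against 2.33 and 5.52 CPM) and Jag2 (106 and 74.7 against 48.2 and 54.9 CPM) fell. The target gene Hes1 (1.32 and 1.04 against 0.372 and 0.480 CPM) was low and not called. Wnt signaling had 3 rises and 1 fall among 58 members, near the share of all genes. These were the secreted antagonist gene Draxin (19.0 and 25.2 against 198 and 135 CPM, 2.88, SE 0.31, adjusted p = 0.012), which is also an axon guidance cue. The others were the ligand gene Wnt3 (4.83 and 4.31 against 23.8 and 19.3 CPM), the secreted inhibitor gene Wif1 and, downward, the receptor gene Fzd9 (10.8 and 12 against 1.30 and 2.37 CPM). The Wnt target gene Axin2 had 9.02 and 6.59 against 14.7 and 11.9 CPM and was not called (0.81, adjusted p = 0.084).

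In the TGF-beta and BMP pathway, 3 of 62 members rose and 5 fell, with a median of 0.07 (0.23 and -0.13 without control replicate 1 and 2). These were 4.84% and 8.06% of the members, against 5.81% and 4.81% of all genes tested. The type 1 receptor gene Tgfbr1 (30.6 and 30.7 against 87.4 and 68.8 CPM, log2 fold change 1.34, SE 0.20, adjusted p = 0.019) and the type 2 receptor gene Acvr2a (50.4 and 53.4 against 124 and 104 CPM) rose, with Smurf2, a ubiquitin ligase that degrades the receptors. Among ligands, Bmp6 fell from 25.1 and 19.8 to 1.06 and 2.47 CPM (-3.78, SE 0.46, adjusted p = 0.014) and Tgfb2 from 18.5 and 27.4 to 7.04 and 9.98 CPM. Inhbb fell as well, and the receptor genes Acvr1c (9.66 and 8.15 against 0.714 and 1.51 CPM) and Tgfbr2 (1.68 and 2.34 against 0.528 and 0.274 CPM) fell with them. The target gene Id1, at 21.5 and 5.42 CPM in the control libraries, overlapped the Sox11K91A values of 13.7 and 16.0 CPM.

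Growth factors and their receptors moved in both directions. Of 51 neurotrophic factors and receptors, 5 rose (among them Ngfr, Lif, Mdk and Ptprz1) and 4 fell (Igf1, Vegfb, Met and Vegfa). Igf1, insulin-like growth factor 1, went from 65.0 and 170 to 19.7 and 35.4 CPM (log2 fold change -1.99, SE 0.47, adjusted p = 0.043), while its receptor gene Igf1r had 25.1 and 7.65 against 55.3 and 38.3 CPM and was not called (1.82, adjusted p = 0.06). Vegfb, a vascular endothelial growth factor, fell from 69.0 and 75.7 to 16.1 and 23.4 CPM (-1.90, SE 0.23, adjusted p = 0.014). The BDNF receptor gene Ntrk2 had 186 and 112 against 140 and 139 CPM. The cultures received BDNF and CNTF in both groups. Downstream of such receptors, Socs2, a feedback inhibitor of cytokine receptors, rose from 16.9 and 19.9 to 55.0 and 50.2 CPM (1.51, SE 0.16, adjusted p = 0.012), and the kinase gene Jak2 from 36.6 and 40.8 to 102 and 75.6 CPM. Of 25 JAK-STAT genes these 2 rose and 0 fell, with 6 higher and 2 lower at an unadjusted p under 0.05 and 5 upward and 0 downward by DESeq2, and Stat3 and Socs3 were not called. In the PI3K and mTOR group, Pik3r3, a regulatory subunit of PI3K, rose from 122 and 118 to 362 and 310 CPM (1.48, SE 0.19, adjusted p = 0.015) with Ddit4, an inhibitor of mTOR (44.7 and 50.2 against 85.4 and 72.8 CPM). Eif4ebp1, the translation repressor 4E-BP1, fell from 10.3 and 9.39 to 1.37 and 2.37 CPM (-2.45, SE 0.38, adjusted p = 0.020), with the lipid phosphatase gene Inpp4b, and the kinase gene Mtor was not called. In the FGF group, Fgfr3 (0.143 and 0.311 against 2.14 and 1.44 CPM) and Fgfr4 were the 2 of 32 members that rose, and the feedback inhibitor gene Spry2 (47.9 and 41.9 against 19.3 and 22.6 CPM) fell. These were 6.25% and 3.12% of the FGF group, near the shares of all genes.

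**Figure D2:**
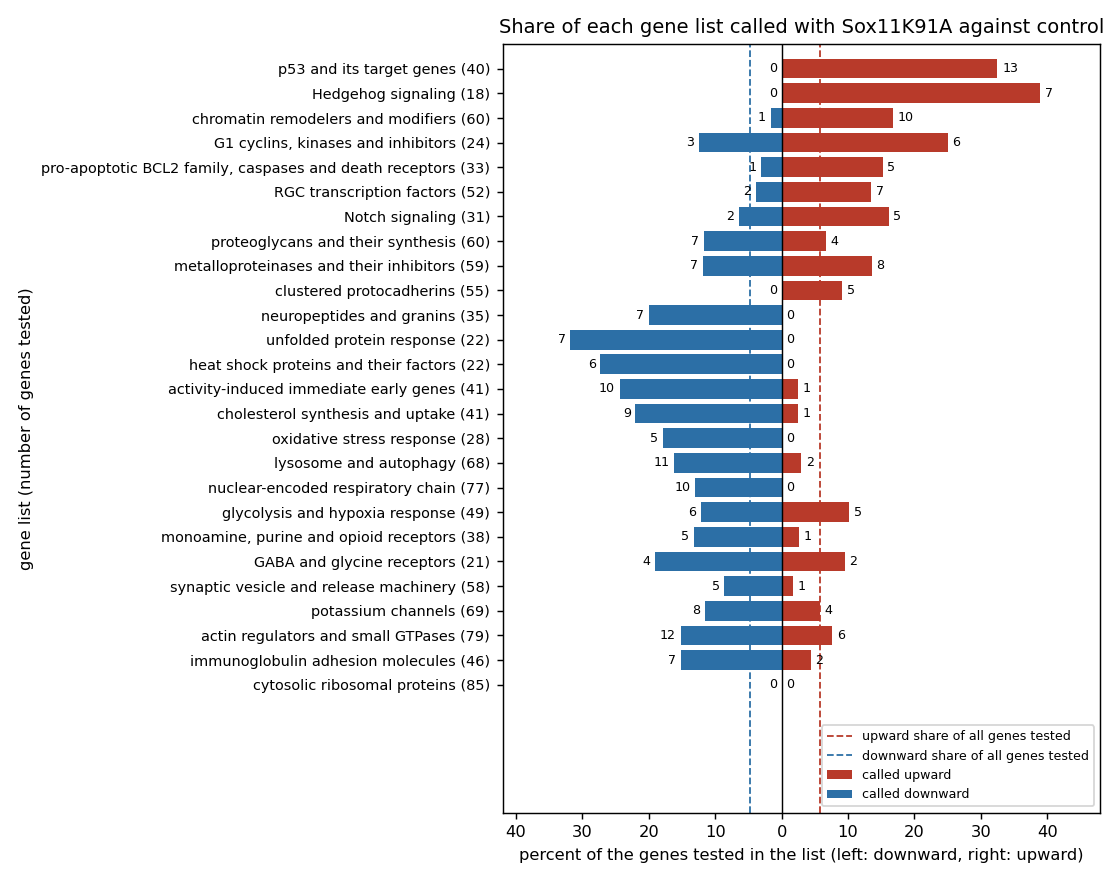
Share of the genes tested in each of 26 gene lists that were called upward (right) and downward (left) with Sox11K91A against control, with the count of genes at each bar and dashed lines at the shares of all genes tested (5.81% and 4.81%). The p53 and Hedgehog lists extend farthest to the right, at 32.5% and 38.9%, and the unfolded protein response list farthest to the left, at 31.8%.

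Among genes of protein folding the called members were lower. Of 22 members of the unfolded protein response, the pathway that adjusts the folding capacity of the endoplasmic reticulum (ER), 0 rose and 7 fell. They had a median log2 fold change of -0.54 (-0.65 and -0.42 without control replicate 1 and 2). edgeR called 0 and 7 and DESeq2 0 and 14, and at an unadjusted p under 0.05 there were 1 higher and 15 lower. Calr, the ER chaperone calreticulin, went from 425 and 458 to 125 and 167 CPM (-1.60, SE 0.24, adjusted p = 0.019). Hspa5, the ER chaperone BiP, went from 297 and 366 to 190 and 200 CPM (-0.76, SE 0.15, adjusted p = 0.031), and Xbp1, a transcription factor of the response, from 79.4 and 107 to 39.2 and 45.8 CPM (-1.12, SE 0.18, adjusted p = 0.021). Sdf2l1, Hsp90b1, Manf and Canx also fell. Of 22 heat shock genes, 0 rose and 6 fell, with a median of -0.51 (edgeR 0 and 4, DESeq2 1 and 9). The small heat shock protein gene Hspb8 (30.0 and 31.4 against 3.85 and 6.82 CPM, -2.59, SE 0.50, adjusted p = 0.028) and its partner gene Bag3 (19.0 and 16.7 against 2.23 and 4.18 CPM, -2.54, SE 0.38, adjusted p = 0.019) fell most. Hspb1 also fell (29.3 and 24.1 against 4.44 and 7.17 CPM). Hspa1a (36.8 and 43.7 against 16.1 and 21.0 CPM) and Hspa1b, which are nearly identical in sequence and may share reads, and Hsph1 also fell.

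The response to amino acid shortage and other stress through Atf4 had 2 of 32 members up and 2 down, 6.25% each, near the shares of all genes, and a median of -0.43. At an unadjusted p under 0.05 there were 3 higher and 19 lower, and DESeq2 called 2 and 13. Of the 32, 23 were lower without overlap, against 4828 of all 15747 genes tested. Sesn2, a sestrin that restrains mTOR and is also a p53 target, rose from 44.9 and 47.6 to 195 and 127 CPM (log2 fold change 1.76, SE 0.21, adjusted p = 0.014). Cebpb, a bZIP factor, fell from 29.5 and 22.8 to 4.69 and 7.30 CPM (-2.14, SE 0.36, adjusted p = 0.022), and Mthfd2, of mitochondrial folate metabolism, from 40.3 and 32.1 to 14.6 and 16.9 CPM. Atf4 (271 and 202 against 197 and 195 CPM) and Ddit3 (15.4 and 16.6 against 13.0 and 11.1 CPM) were not called. Of 28 genes of the oxidative stress response 5 fell and 0 rose, with a median of -0.61 (-0.77 and -0.42 without control replicate 1 and 2). edgeR called 0 and 3 and DESeq2 0 and 13. Srxn1, sulfiredoxin, which restores peroxiredoxins, went from 269 and 302 to 63.9 and 100 CPM (-1.83, SE 0.30, adjusted p = 0.022), and Gsr, glutathione reductase, from 77.6 and 100 to 46.5 and 51.9 CPM (-0.85, SE 0.17, adjusted p = 0.030). Prdx5, Gclm and Sod2 also fell, whereas Nfe2l2, the factor NRF2 that drives such genes (69.6 and 89.1 against 61.4 and 69.2 CPM), and Hmox1 (8.84 and 14.9 against 4.10 and 6.21 CPM, adjusted p = 0.094) were not called.

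Of 41 activity-induced immediate early genes 10 fell and 1 rose, with a median log2 fold change of -0.57 (-0.46 and -1.07 without control replicate 1 and 2). Atf3, a bZIP factor induced by stress and axon injury, went from 30.0 and 38.6 to 3.13 and 6.89 CPM (-2.89, SE 0.35, adjusted p = 0.014). Dusp14, a phosphatase of MAP kinases, went from 10.3 and 17.8 to 1.33 and 2.19 CPM (-3.02, SE 0.46, adjusted p = 0.020), and Jun, of the AP-1 complex, from 239 and 276 to 99.3 and 154 CPM (-1.05, SE 0.23, adjusted p = 0.036). Ptgs2, Arc, Nptx2, Csrnp1, Klf10, Ier3 and Jund also fell. The 1 rise was the orphan nuclear receptor gene Nr4a2, from 5.44 and 3.19 to 13.6 and 11.2 CPM (1.61, SE 0.31, adjusted p = 0.028). Fos (177 and 89.4 against 78.1 and 91.8 CPM) and Egr1 (8.62 and 13.5 against 9.15 and 6.82 CPM) overlapped between the groups. Among 31 genes of the axon injury and DLK-JNK response, 4 rose, Sox11 among them, and 5 fell. Nmnat2, the NAD-synthesizing enzyme that keeps axons intact, rose from 147 and 151 to 290 and 255 CPM (0.87, SE 0.15, adjusted p = 0.023), with the tubulin gene Tubb2b and the kinase gene Mapk8, while Sprr1a, Atf3, Hspb1, Ecel1 and Jun fell. Gap43 (1218 and 1542 against 1090 and 1224 CPM) and the DLK gene Map3k12 (187 and 146 against 127 and 141 CPM) were not called.

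Respiratory chain genes were lower when encoded in the nucleus. Of 77 nuclear-encoded genes of the respiratory chain and ATP synthase, 0 rose and 10 fell, and 0 had a fold change above 1. In 66 of them both Sox11K91A values lay below both control values (against 4828 of all 15747 genes tested). Their median log2 fold change was -0.51, or -0.70 and -0.32 without control replicate 1 and 2. edgeR called 0 and 10 and DESeq2 0 and 38, and at an unadjusted p under 0.05 there were 0 higher and 46 lower. Atp5g1 (199 and 226 against 86.0 and 109 CPM, -1.13, SE 0.22, adjusted p = 0.029) and Atp5d (247 and 266 against 110 and 127 CPM, -1.12, SE 0.18, adjusted p = 0.020), both subunits of the ATP synthase, fell. The other called members were Cox7a1, Uqcr11, Cyc1, Uqcrq, Ndufs7, Sdhd, Ndufa13 and Uqcr10. The 13 mitochondrially encoded genes were all higher and 0 were called by limma-voom, with a median of 0.35, 2 higher at an unadjusted p under 0.05 and 2 upward by DESeq2. Of these, mt-Co1 had 7283 and 7533 against 9119 and 8560 CPM. The 85 cytosolic ribosomal protein genes had a median of -0.06 with 0 called (1 higher and 4 lower at an unadjusted p under 0.05, and 0 and 2 by DESeq2), and this median was -0.35 without control replicate 1 and 0.24 without control replicate 2. The difference between the 2 control libraries had a median of 0.32 in the nuclear respiratory genes and 0.56 in the ribosomal genes, with replicate 2 the higher.

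In glycolysis and the hypoxia response, 5 of 49 members rose and 6 fell, with a median of -0.46. Of the 49, 31 were lower without overlap, against 4828 of all 15747 genes tested. DESeq2 called 5 upward and 19 downward, and at an unadjusted p under 0.05 there were 7 higher and 21 lower. The muscle aldolase gene Aldoa fell from 1045 and 1130 to 294 and 439 CPM (log2 fold change -1.60, SE 0.36, adjusted p = 0.040). The brain aldolase gene Aldoc went from 8.30 and 8.02 to 0.652 and 1.75 CPM (-2.94, SE 0.57, adjusted p = 0.029). Slc2a1, which encodes GLUT1, fell from 38.0 and 45.3 to 14.1 and 14.9 CPM (-1.52, SE 0.19, adjusted p = 0.014), together with Eno2, Tpi1 and Vegfa. Ldha had 388 and 412 against 177 and 246 CPM and was not called (-0.94, adjusted p = 0.10). The rises were Pfkfb3, the regulator of phosphofructokinase (41.6 and 30.7 against 106 and 79.9 CPM, 1.37, SE 0.21, adjusted p = 0.020), the Myc antagonist gene Mxi1 (32.0 and 37.2 against 97.3 and 78.5 CPM), the histone demethylase gene Kdm3a, Ldhb and Ddit4. Ldha and Ldhb encode the subunits of lactate dehydrogenase.

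In cholesterol supply and the lysosome more genes fell than rose. Of 41 genes of cholesterol synthesis and uptake, 1 rose and 9 fell, with a median of -0.47 (-0.59 and -0.30 without control replicate 1 and 2). Stard4, a sterol carrier, went from 22.8 and 27.3 to 8.07 and 9.43 CPM (log2 fold change -1.53, SE 0.29, adjusted p = 0.027). Mvk, Mvd, Pmvk, Ebp and Hsd17b7, enzymes of the synthesis pathway, the regulator Insig1 and the brain sterol hydroxylase Cyp46a1 also fell. The synthesis enzymes Hmgcs1 (486 and 719 against 512 and 568 CPM) and Sqle (155 and 205 against 123 and 131 CPM) were not called, and Soat1, which esterifies cholesterol for storage, rose (21.3 and 19.4 against 38.1 and 32.5 CPM, 0.80, SE 0.19, adjusted p = 0.043). Of 68 genes of the lysosome and autophagy, 11 fell and 2 rose. Gaa, lysosomal alpha-glucosidase (729 and 581 against 213 and 294 CPM, -1.38, SE 0.28, adjusted p = 0.032), fell. So did the protease gene Ctsd (480 and 579 against 268 and 323 CPM), the membrane protein gene Lamp1 (311 and 330 against 197 and 225 CPM) and Naglu, Gm2a, Cd63, Grn, Gusb, Ctsb, Neu1 and Atp6v0a1. The 2 rises were autophagy genes, Atg14 (20.0 and 22.1 against 37.1 and 31.0 CPM) and Atg4b (80.7 and 79.6 against 134 and 120 CPM), and Map1lc3b was not called (212 and 238 against 273 and 269 CPM).

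**Figure D3:**
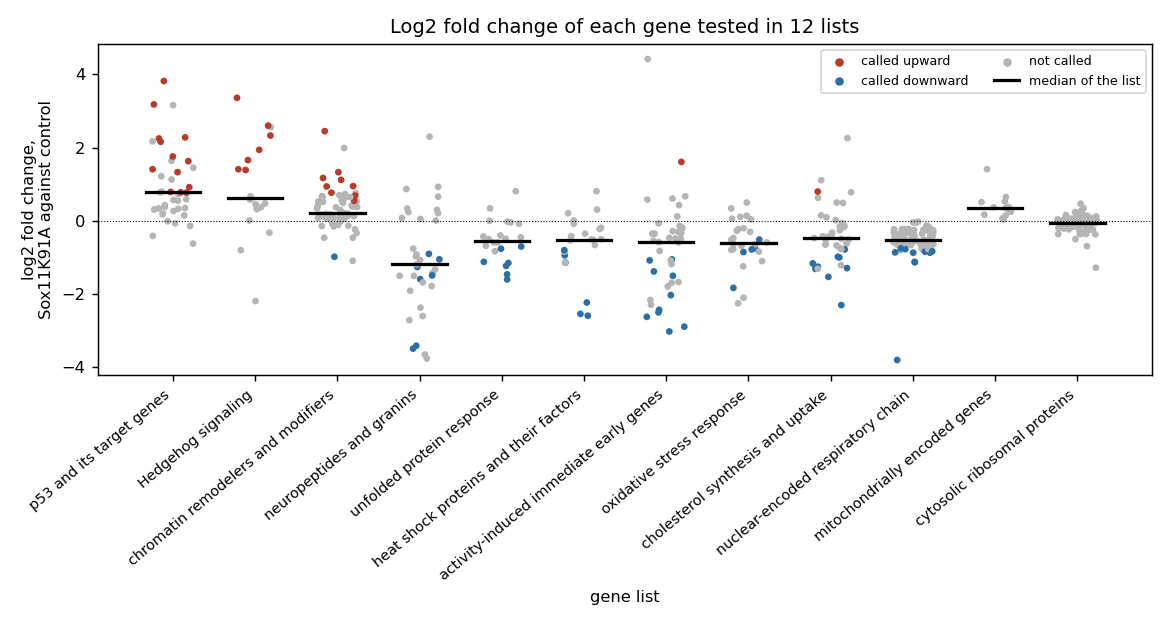
Log2 fold change with Sox11K91A against control of each gene tested in 12 lists, colored by call, with black lines at the list medians. Points of the p53 and Hedgehog lists lie mostly above 0, those of the nuclear-encoded respiratory chain all lie below 0 (median -0.51), and the mitochondrially encoded genes all lie above it (median 0.35).

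Neuropeptides and granins were lower, with 0 rises and 7 falls among 35 members and a median of -1.19 (edgeR 0 and 8, DESeq2 0 and 12, and 1 higher and 17 lower at an unadjusted p under 0.05). The median was -1.03 and -1.09 without control replicate 1 and 2. Adcyap1, which encodes PACAP and is also made by melanopsin RGCs, went from 418 and 367 to 23.2 and 59.8 CPM (log2 fold change -3.41, SE 0.52, adjusted p = 0.020). Nppb, the brain natriuretic peptide, went from 5.65 and 13.4 to 0.652 and 0.995 CPM (-3.49, SE 0.79, adjusted p = 0.040), and Vgf, an abundant neurotrophin-induced secretory protein, from 3154 and 2841 to 896 and 1265 CPM (-1.49, SE 0.25, adjusted p = 0.023). The processing enzymes Pcsk1 and Pam, Nts and Chga also fell. Scg2 had 1725 and 1631 against 739 and 994 CPM and missed the threshold (-0.97, adjusted p = 0.056), and Chgb had 471 and 432 against 568 and 503 CPM.

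Among genes of RGC subtypes, more fell than rose. Of 14 genes of melanopsin RGCs, 0 rose and 3 fell (Opn4, Adcyap1 and Igf1). Falls made up 21.4% of this list, 16.7% of the alpha RGC list and 7.41% of the list of other subtypes. Over all genes tested, 4.81% fell. Opn4, melanopsin, had 4.08 and 7.84 CPM in the control libraries and 0.465 and 0.514 CPM with Sox11K91A (log2 fold change -3.54, SE 0.64, adjusted p = 0.025), and the melanopsin RGC factor gene Eomes had 17.6 and 49.6 against 15.3 and 18.1 CPM and was not called. DESeq2 called 1 of the 14 upward and 4 downward. Of 12 genes of alpha RGCs, Opn4 and the neurofilament gene Nefh fell and the kinase gene Sgk1 rose (9.52 and 14.7 against 43.2 and 31.8 CPM), and Spp1, at 14.4 and 43.1 against 3.01 and 4.32 CPM, was not called (-2.85, adjusted p = 0.15). Of 27 genes of other subtypes, the receptor genes Trhr and Htr2a (5.40 and 4.15 against 0.714 and 0.960 CPM) fell and 0 rose, and Cartpt, a peptide of direction-selective RGCs, had 1035 and 929 against 201 and 403 CPM without a call (-1.78, adjusted p = 0.15). The median of these other subtype genes was -0.04 without control replicate 1 and -0.91 without control replicate 2.

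Ion channels had calls in both directions. Of 17 sodium channel genes 3 rose and 2 fell. Fgf11, an intracellular FGF that binds the channels, went from 69.7 and 67.9 to 13.2 and 19.3 CPM (log2 fold change -2.11, SE 0.33, adjusted p = 0.020). Its relatives Fgf13 (33.2 and 38.1 against 86.6 and 78.3 CPM, 1.21, SE 0.20, adjusted p = 0.022) and Fgf14 (9.59 and 8.09 against 22.6 and 17.5 CPM) rose, with Scn3b. The pore gene Scn8a, the main sodium channel of mature axon initial segments, had 197 and 98.3 against 75.3 and 86.8 CPM and was not called (-0.79, adjusted p = 0.15). Among 24 calcium channel genes the median was -0.10 (0.11 and -0.31 without control replicate 1 and 2). Cacna1e, of R-type channels, rose from 16.6 and 11.5 to 103 and 69.1 CPM (2.64, SE 0.40, adjusted p = 0.020). Cacna1h, of T-type channels, rose from 98.2 and 72.0 to 215 and 178 CPM (1.22, SE 0.19, adjusted p = 0.020). The auxiliary gene Cacng3 fell (36.7 and 32.8 against 15.1 and 18.5 CPM). Cacna1a (307 and 159 against 180 and 172 CPM) was not called. Of 69 potassium channel genes 4 rose and 8 fell, with a median of -0.39 (-0.12 and -0.74 without control replicate 1 and 2). Kcnh4 (6.51 and 7.89 against 33.5 and 27.1 CPM) and the leak channel gene Kcnk2 (7.98 and 8.64 against 38.3 and 30.3 CPM, 2.03, SE 0.22, adjusted p = 0.012) rose, while Kcnq5 (3.40 and 3.11 against 0.341 and 0.412 CPM) and Kcnk13 (4.76 and 2.41 against 0.310 and 0.652 CPM) fell. With the Y-linked to Xist ratio as a covariate, 3 of the 69 were called upward and 28 downward, and DESeq2 called 6 and 14. Hcn2, of the channels opened by hyperpolarization, fell from 120 and 112 to 36.3 and 47.1 CPM (-1.49, SE 0.16, adjusted p = 0.012). Hcn4 (82.1 and 25.4 against 60.9 and 55.6 CPM, adjusted p = 0.64), far apart between the controls, was not called.

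Transmitter receptors moved in both directions. Of 18 ionotropic glutamate receptor genes 4 rose, the AMPA receptor genes Gria2, Gria3 and Gria4 and the NMDA receptor gene Grin2b, and 1 fell, the kainate receptor gene Grik4 (14.2 and 19.6 against 4.59 and 7.10 CPM). Gria3 went from 19.5 and 12.8 to 55.2 and 46.6 CPM (log2 fold change 1.71, SE 0.22, adjusted p = 0.016) and Grin2b, the subunit that prevails in immature neurons, from 68.3 and 41.8 to 117 and 100 CPM (1.03, SE 0.24, adjusted p = 0.043). The median of the 18 was -0.62 (-0.27 and -1.04 without control replicate 1 and 2), against the direction of most of its calls. edgeR called 2 upward and 0 downward and DESeq2 5 and 4. With the Y-linked to Xist covariate the balance turned, with 2 upward and 8 downward, and Gria4, Grin2b and Grik4 were no longer called. Of 7 metabotropic receptor genes, Grm2 rose (6.8 and 4.07 against 13.6 and 11.3 CPM) and Grm4 fell (9.95 and 14.8 against 2.02 and 4.15 CPM). Of these 7, edgeR called 0 upward, as did the fit with the same covariate, and DESeq2 called 1. For inhibitory receptors, 2 of 21 rose and 4 fell. The glycine receptor gene Glra2 went from 24.8 and 24.8 to 70.2 and 56.2 CPM (1.34, SE 0.27, adjusted p = 0.030). Gabrb1 (10.6 and 5.94 against 1.49 and 2.57 CPM), Gabrq (6.26 and 5.76 against 1.68 and 1.92 CPM), and Gabra5 were among those that fell. Slc12a5, the chloride exporter KCC2 whose rise makes GABA inhibitory in mature neurons, fell from 227 and 147 to 48.3 and 74.2 CPM (-1.61, SE 0.29, adjusted p = 0.026). Its importer counterpart gene Slc12a2 had 30.6 and 24.5 against 27.3 and 28.1 CPM. Of 34 transporters, 4 fell and 0 rose, also the glycine transporter gene Slc6a9 (27.6 and 17.5 against 5.34 and 7.78 CPM), Slc1a6 and Atp2b4, with 1 upward and 9 downward by DESeq2. Of 15 acetylcholine receptor genes 2 rose and 1 fell, with a median of -0.12 (0.19 and -0.98 without control replicate 1 and 2). They were Chrnb2 (237 and 179 against 392 and 341 CPM) and Chrna4 (63.6 and 74.6 against 133 and 104 CPM), upward, and Chrna6, downward (9.48 and 8.04 against 1.18 and 2.16 CPM, -2.44, SE 0.38, adjusted p = 0.020). Chrna4 lost its call in 12 of 18 alternatives, which was not particular to it. Among other genes named in this text, Jag2 and Dpf1 lost theirs in 12, Atg14, Ccnd3, Gusb and Gria4 in 13 and Notch3 in 15. Of 38 receptors for monoamines, purines and opioids, 5 fell, Sstr3 (7.91 and 5.53 against 0.528 and 0.686 CPM) and Adra1b (40.7 and 58.5 against 6.55 and 10.1 CPM, -2.60, SE 0.29, adjusted p = 0.012) most, with Htr2a, Adra2c and Drd1. Hrh3 rose from a low level (0.179 and 0.130 against 0.962 and 1.27 CPM).

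At the synapse, 5 of 58 genes of vesicles and release fell and 1 rose. DESeq2 called 3 upward and 17 downward, and with the Y-linked to Xist covariate there were 3 and 25. Syp, synaptophysin, went from 1134 and 1034 to 479 and 608 CPM (log2 fold change -1.0, SE 0.23, adjusted p = 0.042). Syn2, a synapsin, went from 104 and 111 to 41.4 and 49.0 CPM (-1.26, SE 0.18, adjusted p = 0.019). Slc17a6, the vesicular glutamate transporter VGLUT2, fell from 653 and 546 to 314 and 350 CPM (-0.85, SE 0.16, adjusted p = 0.027), with Syngr1 and Syngr3. The rise was the priming factor gene Unc13b (46.0 and 30.4 against 91 and 75.1 CPM). The core fusion genes Snap25 (907 and 802 against 722 and 765 CPM), Vamp2 (733 and 718 against 477 and 532 CPM, adjusted p = 0.07) and Syt1 (973 and 656 against 674 and 740 CPM) were not called. Of 62 synaptic organizers and scaffolds 4 rose and 2 fell, with Igsf9 (17.9 and 26.9 against 104 and 82.0 CPM) and Homer3 (14.6 and 20.4 against 50.5 and 44.4 CPM) up and C1ql3 and Lrfn5 (94.9 and 87.0 against 52.9 and 62.3 CPM) down. The scaffold gene Dlg4, which encodes PSD-95, had 407 and 388 against 213 and 268 CPM (-0.73, adjusted p = 0.087).

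Genes of the matrix and its proteases were called in both directions. Of 59 metalloproteinases and inhibitors, 8 rose and 7 fell. Mmp2, a gelatinase, rose from 5.22 and 7.11 to 60.1 and 44.8 CPM (log2 fold change 3.06, SE 0.27, adjusted p = 0.0092) and Adamts7 from 0.895 and 1.09 to 25.1 and 13.4 CPM. The other gelatinase gene Mmp9 fell from 4.58 and 5.63 to 0.465 and 1.06 CPM (-2.86, SE 0.52, adjusted p = 0.026) with Mmp12. So did the inhibitor gene Timp2 (336 and 432 against 180 and 215 CPM). Of 60 proteoglycans and enzymes of their synthesis, 4 rose, all of them core proteins (Vcan, Gpc2, Ncan and Ptprz1), and 7 fell. The falls included a core protein gene as well, Cspg5. Gpc2, a heparan sulfate proteoglycan of growing neurons, went from 85.6 and 105 to 730 and 593 CPM (2.80, SE 0.20, adjusted p = 0.0092), though 55.6% of its exon bases overlap Gm43720 on the same strand. The sulfotransferase genes Chst1 (88.4 and 109 against 22.7 and 31.6 CPM) and Chst2 (127 and 126 against 38.1 and 50.6 CPM, -1.53, SE 0.18, adjusted p = 0.013) fell. Collagens were called in both directions, 7.5% up and 5.0% down, near the shares of all genes. Col5a2 (4.47 and 4.44 against 37.6 and 29.7 CPM, 2.91, SE 0.34, adjusted p = 0.014) and Col9a3 (12.9 and 9.99 against 82.6 and 55.2 CPM) were among 3 rises of 40. The collagen VI genes Col6a1 (225 and 249 against 55.2 and 84.8 CPM, -1.79, SE 0.22, adjusted p = 0.014) and Col6a2 (55.9 and 46.0 against 3.69 and 10.1 CPM) were the 2 falls. Among 41 basement membrane genes, Lama1 (9.34 and 6.36 against 62.9 and 35.1 CPM, 2.64, SE 0.38, adjusted p = 0.019) and Fbln1 were in the 3 that rose. Sparcl1 (215 and 296 against 52.5 and 89.6 CPM), Egfl7 and Tnc (20.5 and 17.4 against 6.8 and 9.5 CPM) were in the 5 that fell. Integrin genes had 1 rise, Itgb8, which activates TGF-beta (2.08 and 1.48 against 17.3 and 13.2 CPM), and 3 falls of 20. The falls were the laminin receptor genes Itga6 (52.6 and 43.4 against 18.8 and 24.2 CPM), Itga3 and Itgb1 (275 and 284 against 160 and 192 CPM, -0.67, SE 0.16, adjusted p = 0.042).

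Adhesion molecules between cells were called in both directions. Clustered protocadherins, which give neurons a surface identity, had 5 rises and 0 falls among 55 members, and 51 were above a fold change of 1, with a median of 0.52 (0.76 and 0.19 without control replicate 1 and 2). At an unadjusted p under 0.05 there were 22 higher and 0 lower, and edgeR called 3 upward and DESeq2 11, with 0 downward by either. Pcdhgc3 had the largest rise, from 73.5 and 41.4 to 279 and 190 CPM (log2 fold change 2.07, SE 0.32, adjusted p = 0.020). Members of the gamma cluster share their last exons, 38.5% of the exon bases of Pcdhgc3, so their counts are uncertain and not independent. Among 39 other cadherins, 4 rose and 3 fell, and the median was 0.22 without control replicate 1 and -0.55 without control replicate 2. Cdh2, N-cadherin, rose from 141 and 138 to 355 and 302 CPM (1.23, SE 0.19, adjusted p = 0.020) and Pcdh8 from 84.4 and 50.7 to 165 and 132 CPM, while Cdh23 (8.87 and 6.07 against 0.931 and 1.51 CPM) and Pcdh20 fell. Of 46 immunoglobulin adhesion molecules 2 rose, Jam3 and Cadm1 (88.9 and 92.8 against 184 and 167 CPM, 0.95, SE 0.17, adjusted p = 0.025), and 7 fell. Mcam (97.0 and 50.4 against 8.32 and 13.6 CPM, -2.72, SE 0.53, adjusted p = 0.028) and Bcam (103 and 86.8 against 13.4 and 25.4 CPM) fell most, and Alcam (47.5 and 35.2 against 19.9 and 24.2 CPM) was among the rest.

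In the cytoskeleton, genes were called in both directions. Of 13 intermediate filament genes, Nefh, the heavy neurofilament of mature axons, fell from 179 and 109 to 24.5 and 32.7 CPM (log2 fold change -2.31, SE 0.34, adjusted p = 0.019). Nefm fell from 3341 and 3419 to 1094 and 1598 CPM (-1.35, SE 0.32, adjusted p = 0.044), with Lmna (109 and 114 against 36.6 and 44.6 CPM) and Nes. Nefl had 7086 and 6345 against 3096 and 4328 CPM and was not called (-0.87, adjusted p = 0.12). Alpha-internexin, encoded by Ina and made before the neurofilaments, rose from 1472 and 1142 to 2889 and 2485 CPM (1.04, SE 0.19, adjusted p = 0.026), with the lamin gene Lmnb1 (25.8 and 26.1 against 67.1 and 54.4 CPM). Among 51 genes of microtubules 7 rose and 6 fell. Dcx, doublecortin, went from 300 and 263 to 1285 and 1040 CPM (2.04, SE 0.21, adjusted p = 0.012). Stmn1 rose from 936 and 1489 to 3081 and 2672 CPM (1.28, SE 0.25, adjusted p = 0.029) and Map2, of dendrites, from 556 and 509 to 1236 and 1023 CPM (1.08, SE 0.24, adjusted p = 0.039). Mapt, tau, had 1544 and 1740 against 1648 and 1721 CPM (0.04, adjusted p = 0.88). Tuba4a, an alpha-tubulin of mature neurons, fell from 108 and 97.0 to 20.6 and 33.2 CPM (-1.98, SE 0.37, adjusted p = 0.028), with 37.3% of its exon bases shared with Stk16 on the other strand. Of 79 actin regulators and small GTPases 6 rose and 12 fell, with Pak1 (152 and 211 against 393 and 344 CPM), Wasf1 and Marcksl1 (483 and 583 against 1040 and 913 CPM) up. Rhoc (184 and 280 against 35.3 and 55.7 CPM, -2.36, SE 0.47, adjusted p = 0.030), Diaph3 and Rnd2 were among those that fell. Of 58 transport genes 5.17% were called each way, near the shares of all genes. Of these 3 rose, the kinesin genes Kif6 and Kif7 among them, and 3 fell, with the dynein chain gene Dync1i1 (36.6 and 33.4 against 5.77 and 11.7 CPM, -2.10, SE 0.40, adjusted p = 0.028) and the adaptor gene Hap1 (106 and 139 against 37.1 and 47.3 CPM).

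**Figure D4:**
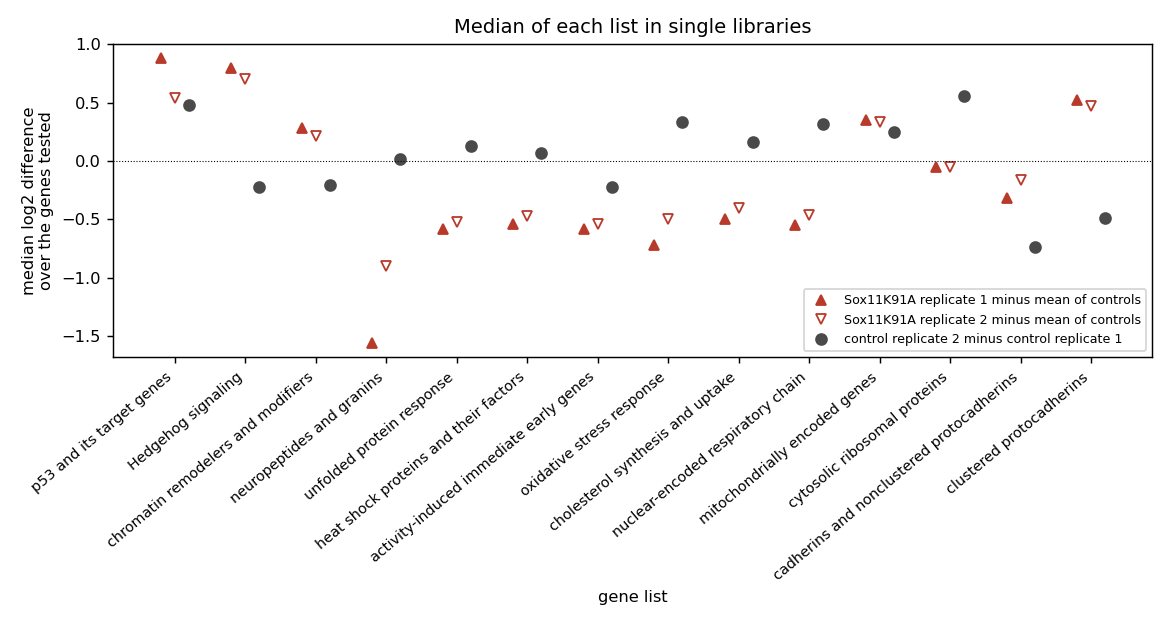
Median log2 difference over the genes tested in 14 lists, for Sox11K91A replicate 1 (filled triangles) and replicate 2 (open triangles) against the mean of the controls, and for control replicate 2 against control replicate 1 (circles). In the ribosomal and cadherin lists the difference between the controls (0.56 and -0.74) is larger than that of either Sox11K91A library, while in the neuropeptide list it is 0.02 against -1.56 and -0.90.

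Innate immune genes were called in both directions. Of 28 interferon and sensing genes, Usp18 and Oasl2 (0.823 and 0.856 against 7.14 and 7.54 CPM, log2 fold change 3.10, SE 0.39, adjusted p = 0.015) rose. Herc6 (2.00 and 1.84 against 0.217 and 0.309 CPM) and Ifi35 fell. Of the 28, 7.14% rose and 7.14% fell, against 5.81% and 4.81% of all genes tested. The interferon factor gene Irf7 stayed under 1 CPM in all 4 libraries. Of 25 genes of antigen presentation and complement 4 rose (16.0%) and 2 fell (8.0%). The nonclassical class I gene H2-T23 went from 0.322 and 0.415 to 3.63 and 2.40 CPM (2.95, SE 0.52, adjusted p = 0.024) and the complement inhibitor gene Cd59a from 5.30 and 7.84 to 17.3 and 16.3 CPM. Tap2, the peptide transporter subunit, and the immunoproteasome gene Psmb10 (18.9 and 20.9 against 9.68 and 10.8 CPM) fell. B2m (63.9 and 64.8 against 76.0 and 82.6 CPM) and H2-K1 were not called.

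Signaling through G proteins had 8 rises and 7 falls of 78 (10.3% and 8.97%, against 5.81% and 4.81% of all genes tested). Rgs16, which shortens Gq and Gi signals, rose from 1.4 and 0.960 to 39.1 and 16.9 CPM (log2 fold change 4.50, SE 0.93, adjusted p = 0.033), and the cyclic AMP phosphodiesterase gene Pde8b fell from 28.7 and 17.9 to 3.10 and 6.69 CPM (-2.30, SE 0.41, adjusted p = 0.025). Of 22 clock genes, the repressors Bhlhe40 (39.4 and 27.7 against 5.77 and 9.12 CPM, -2.18, SE 0.40, adjusted p = 0.026) and Bhlhe41 (16.4 and 20.5 against 4.19 and 5.59 CPM) fell with Dbp, and 0 rose (3 higher and 5 lower at an unadjusted p under 0.05, and 1 and 3 by DESeq2). The core gene Arntl had 24.3 and 27.4 against 22.3 and 24.7 CPM. RNA-binding and splicing regulators were close to the share of all genes, with 2 of 43 up, Rbfox2 (585 and 518 against 1026 and 939 CPM) and Rbm38, a p53 target, and 2 down, Cpeb1 (34.7 and 38.4 against 12.8 and 17.8 CPM) and Celf6. Of 20 calcium-binding proteins Hpcal1 rose (136 and 148 against 222 and 198 CPM) and Hpcal4 fell (45.5 and 44.2 against 22.3 and 26.4 CPM), and Calb1 and Calb2 were not called. Of 17 Hox and other positional homeobox genes, Meis1 rose (37.8 and 34.1 against 56.2 and 52.5 CPM) and 0 fell, with 3 higher and 1 lower at an unadjusted p under 0.05. The machinery that attaches and removes SUMO was little changed, with 1 of 24 called, the SUMO protease gene Senp7 (25.2 and 24.4 against 45.3 and 39.3 CPM, 0.77, SE 0.18, adjusted p = 0.043).

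The comparison with unmutated Sox11 asks whether the changed lysine altered the response. In the direct comparison of Sox11K91A with unmutated Sox11, limma-voom called 0 genes, with 108 at an unadjusted p under 0.05, edgeR called 0 and DESeq2 2. Against the same 2 control libraries, 3171 genes were called with unmutated Sox11, and 1612 genes were called in the same direction with both viruses. Because the controls are shared, that overlap is given as a count only. Side by side, Sox11K91A and Sox11 gave log2 fold changes of 3.82 and 3.80 for Eda2r, 2.60 and 2.58 for Smo, 2.45 and 2.57 for Ezh2, -1.60 and -1.77 for Calr and -1.49 and -1.69 for Vgf. A difference that misses the threshold with 2 libraries a group does not show that the viruses act alike.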

How the data were processed

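RNA of immunopanned mouse RGCs was sequenced in 6 libraries, 2 each with control, Sox11 and Sox11K91A AAV. The authors deposited expected counts and TPM per gene for each library, and the submitters' processing notes name STAR, RSEM, limma and mm10; versions, annotation and strand were not given in the sources used here. The expected counts as deposited were rounded and gene symbols, positions and exon overlaps were taken from GENCODE M21 (GRCm38). Spike-in and numbered entries were left out. Genes that passed edgeR's filterByExpr over the 3 groups were scaled by TMM and fitted with limma-voom over all 6 libraries (R 4.3.3, limma 3.58.1, edgeR 4.0.16), with Benjamini-Hochberg adjustment over 15747 genes, two-sided. Genes with an adjusted p under 0.05 and a fold above 1.2 were called. DESeq2 1.42.0, edgeR's quasi-likelihood test and deposited TPM on the log2(TPM + 1) and log2(TPM + 0.1) scales were alternatives. The fit was tested on simulated data.

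The members and gene lists were chosen with earlier results of these data known. Named genes were Sox11, the 8 largest called rises and falls, among genes whose groups did not overlap and whose mean CPM was 1 or more, up to 2 rises and 2 falls per list, key members, and the lone called member of a list. Axon guidance families were left out. Same-numbered replicates did not deviate together between control and Sox11K91A (r = -0.0329 over 15747 genes), so no pairing was used. Depth was 27521982 to 37061718 counts per library. Some genes that the rule names are not reported here.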

Additional observations from a re-analysis of the deposited data

How the results depend on the processing

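Against 1672 calls (915 up, 757 down), DESeq2 called 3144 (1551 and 1593), log2(TPM + 1) 936 (553 and 383), log2(TPM + 0.1) 896 (579 and 317), and a fold above 2 left 1068 (559 and 509). A covariate for libraries with a Y-linked to Xist ratio above 0.2, chosen after seeing the data, gave 2894 (1326 and 1568); the planned split by more Y-linked than Xist counts matched no library and gave no value. Leaving out 1 library gave between 0 and 2529 calls (0 to 1407 up, 0 to 1122 down), with 0 without control replicate 2 and without Sox11K91A replicate 1. Other settings stayed within 1.5 times the count. The cause of these differences was not tested. The log2 fold change of Sox11 was between 4.66 and 5.42 when 1 library was left out, with an adjusted p of 0.056 without control replicate 2 and 0.055 without Sox11K91A replicate 1. Against unmutated Sox11, DESeq2 called 2 genes and limma-voom 0. Fitted with a replicate block, the comparison gave 1402 calls (746 up, 656 down) and Sox11 stayed at 5.04. The numbers correlated at -0.0329 between control and Sox11K91A, so they were not taken as pairs. With 2 libraries a group, small differences were not detectable, and genes near 0 counts in 1 group have uncertain folds. Some uncalled genes changed sign. Without control replicate 1 and 2 respectively, the log2 fold change was -0.19 and 0.49 for Bax, 0.15 and -0.81 for Cacna1a, 1.2 and -0.5 for Hcn4, -0.42 and 0.14 for Hmgcs1, 1.44 and -0.55 for Id1, -0.05 and 0.12 for Mapt, 0.53 and -0.37 for Mtor, 0.31 and -0.43 for Ntrk2, 0.4 and -0.41 for Ptch1, 0.18 and -0.15 for Slc12a2, 0.31 and -0.16 for Stat3 and 0.11 and -0.47 for Syt1. With the Y-linked to Xist covariate it was 0.22 for Egr1, -0.13 for Hcn4, 0.23 for Hmgcs1, -0.69 for Id1, -0.21 for Mtor, -0.22 for Ptch1 and -0.1 for Stat3. Ptch1 was at -0.05 by edgeR, -0.07 by DESeq2 and -0.01 with quality weights.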

Other observations

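Among Reactome pathways of between 15 and 400 genes tested, picked after their counts were seen and given with no test, histone demethylases had 6 rises and 0 falls of 23. Over all genes tested, 5.81% rose and 4.81% fell. Kdm5b, which removes methyl groups from lysine of histone H3, had 90.1 and 92.9 CPM in the control libraries and 237 and 192 CPM with Sox11K91A (log2 fold change 1.22, SE 0.18, adjusted p = 0.019). Of 20 Hippo pathway genes 3 rose and 1 fell, with Amotl2, a binding partner of YAP, from 62.6 and 50.2 to 216 and 175 CPM (1.8, adjusted p = 0.014). Of 59 genes of platelet degranulation, many of which encode secreted factors, 2 rose and 15 fell. Pdgfb, a platelet-derived growth factor, went from 14.4 and 10.4 to 2.42 and 2.91 CPM (-2.18, adjusted p = 0.018) and Thbs1, thrombospondin 1, from 71.0 and 83.5 to 21.8 and 31.3 CPM (-1.56, adjusted p = 0.020). Of 22 genes of transferrin recycling 0 rose and 5 fell, with the transferrin receptor gene Tfrc from 47.0 and 43.5 to 27.2 and 28.9 CPM (-0.69, adjusted p = 0.039).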
